A study of Homo sapiens with 6 samples.

Results

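The genes described here are the 10 that encode the TRAIL and FAS death receptor system: the ligand TNFSF10, the receptors TNFRSF10A, TNFRSF10B, TNFRSF10C, TNFRSF10D and FAS, the adaptor FADD, the initiator caspases CASP8 and CASP10, and the brake CFLAR. They were taken by gene name from a deposited table of 31016 genes, and each name matched 1 row. They were measured in DLD-1, an established human colorectal adenocarcinoma line of epithelial cells, by sequencing of poly(A) RNA in 6 libraries. Cells of 3 libraries had been given TGF-β alone, and cells of the other 3 had been given TGF-β together with TFA, a total flavone extract of the plant Abelmoschus manihot. All groups thus carried TGF-β, and no library of cells without it was analysed here. For both groups the labels state 24 hours of treatment for replicate 1, 25 for replicate 2 and 26 for replicate 3, so the replicates of a group may not be at 1 time. The sources used here state no dose of TFA. Nothing says that the replicates came from separate cultures, so the errors given describe the spread between these libraries, which may be technical.

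TRAIL, the product of TNFSF10, and FAS ligand are members of the tumour necrosis factor family that kill by binding receptors with a cytoplasmic death domain. For TRAIL these are TNFRSF10A (DR4) and TNFRSF10B (DR5), and for FAS ligand it is FAS. Once bound, the receptors gather FADD, which draws in procaspase-8 and procaspase-10, and the caspases activate each other and then the executioner caspases. TNFRSF10C (DcR1), held in the membrane by a lipid anchor without a death domain, and TNFRSF10D (DcR2), with a truncated one, bind TRAIL without passing on the death signal and are therefore called decoys. CFLAR encodes c-FLIP, a relative of caspase-8 that lacks its catalytic activity and competes for the same complex. The study's design names apoptosis as 1 of the outcomes of TFA, and the question put to these genes is whether their RNA differed between cells given TGF-β with and without TFA. RNA does not measure surface receptor, caspase cleavage or cell death.

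Total estimated counts ran from 60361756 to 68745953 per library, with 23096 to 24159 genes above 0. The libraries are called TGF-β 1 to 3 and TFA 1 to 3 below. TFA 3 had a trend along transcript length: relative to the mean of the libraries (log2), the median of the shortest 10% of genes was 0.36 there and that of the longest 10% was -0.33, against -0.16 to 0.20 for both in the other 5 libraries. Epithelial markers gave the line its labelled character (EPCAM at 205 ± 4.90 FPKM under TGF-β alone and 196 ± 8.32 FPKM with TFA, SD, n = 3), although VIL1, a microvillus protein of enterocytes, stayed under 1 FPKM. Levels are given as FPKM, fragments per kilobase of transcript scaled to sequencing depth, as deposited by the authors. Fold changes are from an edgeR quasi-likelihood fit over 18265 genes, as TGF-β with TFA minus TGF-β on the log2 scale, with a standard error and a 95% interval. The 10 genes were selected on results of this same contrast, the lower level of TNFRSF10D among them, so their fold changes are a description and carry no p-value.

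TNFRSF10D, the decoy with the truncated death domain, was lower in every TFA library than in every TGF-β library. It was measured at 14.1, 17.1 and 15.5 FPKM in TGF-β 1 to 3 and at 11.8, 10.4 and 10.02 FPKM in TFA 1 to 3. The groups therefore did not overlap, and the gap lay between TGF-β 1 and TFA 1. The means were 15.6 ± 1.54 FPKM and 10.7 ± 0.952 FPKM (SD, n = 3), a ratio of 0.690. Its estimated counts were 3826, 4489 and 3884 against 2830, 2557 and 2412. On the log2 scale the fit gave a fold change of -0.51 (SE 0.14, interval -0.83 to -0.19). TNFRSF10D (ENSG00000173530) occupies bases 23135588 to 23164027 of chromosome 8, minus strand (GRCh38), and the table overlays no other gene on it. In bulk RNA, fewer cells that express a gene and less RNA per cell cannot be told apart.

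No gene of the set passed at an adjusted p under 0.05 (0 of 10 by edgeR with Benjamini-Hochberg adjustment over all fitted genes, and 0 by DESeq2), where 0.0109% of all fitted genes did so by edgeR and 0.0794% by DESeq2. TNFRSF10D was the 1 member with an unadjusted p under 0.05 in edgeR, against 1.83% of all genes in either direction and 0.761% in the lower direction. It was also the 1 member whose groups did not overlap in depth-scaled counts, against 7.91% of all genes in either direction, 3.33% lower and 4.58% higher with TFA. Since the contrast was known when the genes were chosen, nothing is read from these counts. All 10 passed the filter on low counts, 5 with a fitted value above 0 and 5 below (48.1% of all fitted genes were below), and their median was -0.0072 beside 0.011 over all fitted genes.

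**Figure D1:**
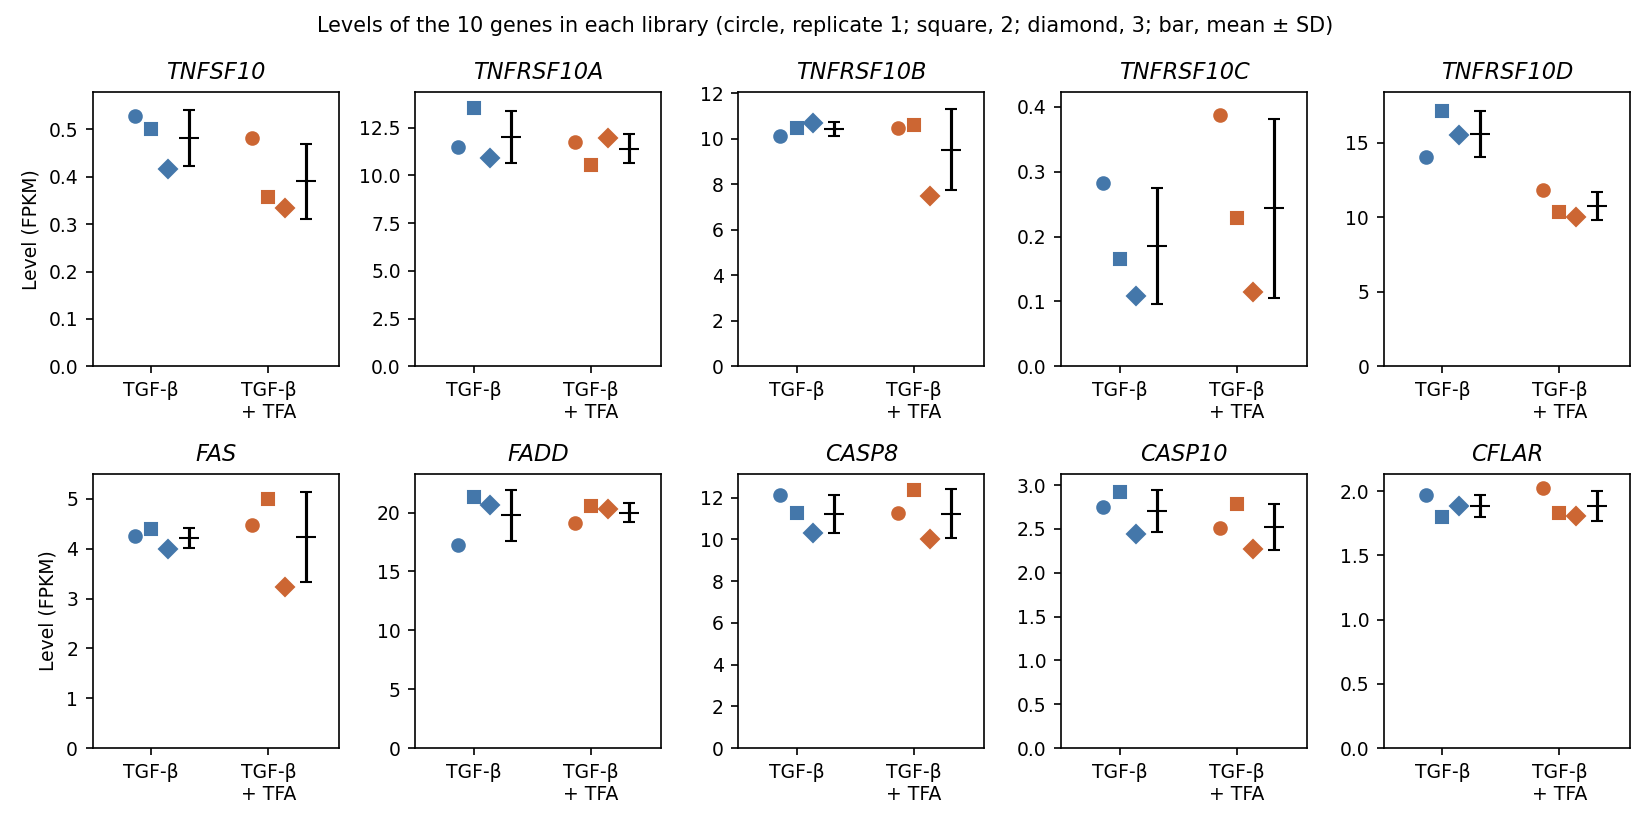
Level of each gene in FPKM (vertical axis, linear and starting at 0) in the libraries given TGF-β (blue) or TGF-β with TFA (orange), with symbols for replicates and black bars for mean ± SD of 3 libraries. TNFRSF10D is the gene whose groups do not overlap, at 14.1 to 17.1 FPKM against 10.02 to 11.8 FPKM.

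For each of the death-signalling TRAIL receptors the groups overlapped. Whether their fold changes differed from that of TNFRSF10D was not tested. TNFRSF10A (DR4) was at 11.5, 13.5 and 10.9 FPKM under TGF-β alone and at 11.7, 10.5 and 11.9 FPKM with TFA. The groups overlapped throughout, with a fold change of -0.03 (log2, SE 0.16, interval -0.41 to 0.34). TNFRSF10B (DR5), the receptor known as a target of the stress factor CHOP, was at 10.1, 10.5 and 10.7 FPKM under TGF-β alone and at 10.5, 10.6 and 7.48 FPKM with TFA. Only TFA 3 was low, and the other 5 libraries lay within 10.1 to 10.7 FPKM. Its log2 fold change came to -0.11 (SE 0.13, interval -0.41 to 0.19), or -0.03 without TFA 3, the library with the length trend. The part of that trend in the low value was not tested.

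TNFRSF10C, the lipid-anchored decoy, was near the lower limit of what these libraries measure. It had 35, 19 and 12 estimated counts under TGF-β alone and 42, 26 and 13 with TFA, or 0.108 to 0.282 FPKM and 0.114 to 0.388 FPKM. These counts may stand for still fewer fragments: in each library more genes had exactly 4 counts (1032 to 1271) than had 3 (601 to 685) or 5 (345 to 396). The fitted log2 fold change of 0.42 had an interval from -0.99 to 1.83 and was -0.04 without TFA 1. A clone-named gene, AC107959 (ENSG00000284948), overlaps 638 bases of its span on the same strand and had 0.932 ± 0.194 FPKM under TGF-β alone and 0.415 ± 0.305 FPKM with TFA (SD, n = 3). With the 2 genes that overlap TNFRSF10C on its strand added to it, the value was -0.63, so no direction can be given for it.

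The 4 TRAIL receptor genes lie side by side within 205 kb of chromosome 8, from 23020133 to 23225102, in the order TNFRSF10B, TNFRSF10C, TNFRSF10D, TNFRSF10A, and arose as copies of each other. TNFRSF10D is separated by 18.1 kb from TNFRSF10C and by 26.4 kb from TNFRSF10A. Despite their kinship, their spliced transcripts in GENCODE 29 share 0 stretches of 50 bases with each other, among 3489 distinct stretches of that length in TNFRSF10D. TNFRSF10A-AS1, a noncoding gene on the opposite strand that overlaps 224 bases of TNFRSF10A, was at 3.54 ± 0.627 FPKM and 3.66 ± 0.441 FPKM (SD, n = 3; log2 fold change 0.09, interval -0.48 to 0.66). The receptor genes on both sides of TNFRSF10D thus had intervals that held 0. AC107959 (ENSG00000284948), also within these 205 kb, had a fitted value below that of TNFRSF10D, at -1.07 (interval -2.51 to 0.37). Its groups did not overlap in FPKM (0.754 to 1.14 against 0.120 to 0.729) but overlapped in depth-scaled counts. Whether TNFRSF10D differed from its neighbours beyond their spread was not tested, because the contrast had chosen the genes.

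Ratios between genes within a library do not move with the scaling of that library. The decoys made up 39.9%, 41.9% and 41.9% of the summed FPKM of the 4 membrane TRAIL receptors in TGF-β 1 to 3, and 35.5%, 33.4% and 34.3% in TFA 1 to 3. The difference of the means was -6.83 percentage points (41.2% ± 1.16 against 34.4% ± 1.06, SD, n = 3), and the groups did not overlap. TNFRSF10C supplied at most 1.13% of the sum in any library, so the share is nearly that of TNFRSF10D. That gene was chosen on this contrast, so the share restates its lower level and nothing further is read from the lack of overlap. TNFRSF10D had the highest FPKM of the 4 in each TGF-β library, at 1.22 to 1.42 times that of TNFRSF10A. It stood at 0.839 to 1.008 times TNFRSF10A in the TFA libraries. Against TNFRSF10B the ratio was 1.39 to 1.64 under TGF-β alone and 0.976 to 1.34 with TFA, where the highest value, of TFA 3, goes with its low TNFRSF10B. The ratio of the signalling receptors to each other, TNFRSF10A over TNFRSF10B, overlapped between the groups (1.15 ± 0.136 against 1.24 ± 0.319, SD, n = 3). Their summed level with the decoys was 36.0 to 41.3 FPKM under TGF-β alone and 29.6 to 34.4 FPKM with TFA.

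**Figure D2:**
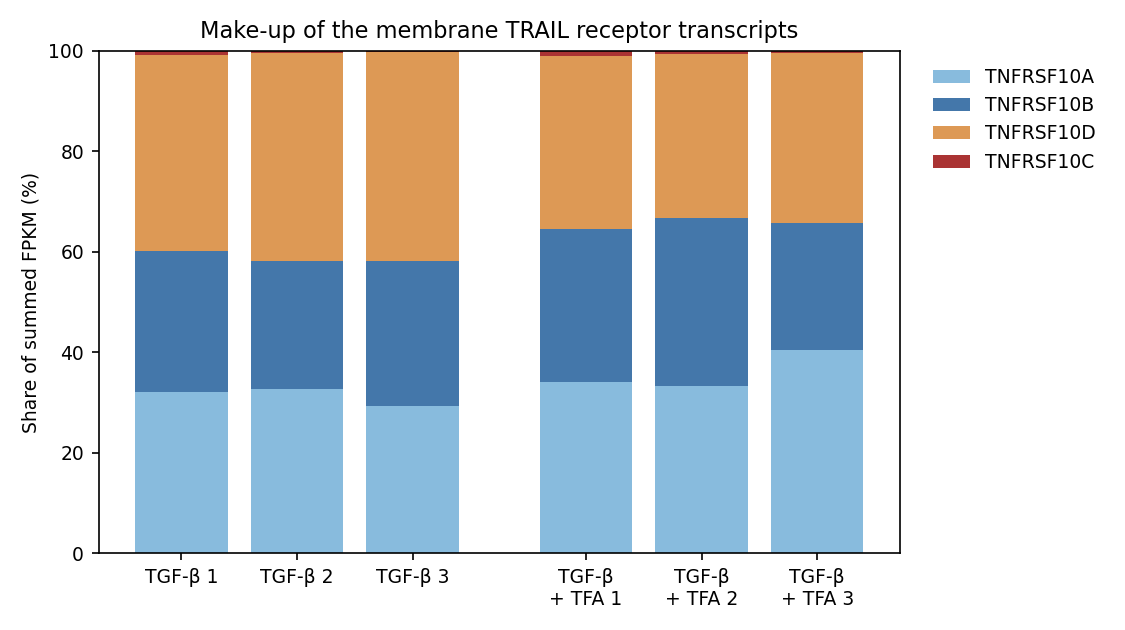
Share of each gene in the summed FPKM of the 4 membrane TRAIL receptors (vertical axis, percent), stacked for each of the 6 libraries. The orange band of TNFRSF10D with the thin red band of TNFRSF10C takes 39.9% to 41.9% under TGF-β alone and 33.4% to 35.5% with TFA.

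TNFSF10, the gene of TRAIL itself, was expressed at a low level. It was at 0.527, 0.501 and 0.416 FPKM under TGF-β alone and at 0.481, 0.357 and 0.334 FPKM with TFA. TFA 2 and TFA 3 were the lowest libraries, while TFA 1 lay inside the TGF-β range. Its log2 fold change came to -0.26 (SE 0.25, interval -0.85 to 0.33). Per length, the ligand stood far below its receptors: its mean over all libraries was 0.436 FPKM beside 9.98 FPKM for TNFRSF10B and 11.7 FPKM for TNFRSF10A. FASLG, the ligand of FAS, was also low, at 0.534 ± 0.0136 FPKM under TGF-β alone and 0.413 ± 0.160 FPKM with TFA (SD, n = 3; chosen after its values were seen).

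FAS was at 4.26, 4.40 and 4.003 FPKM under TGF-β alone and at 4.48, 5.00 and 3.23 FPKM with TFA. The TFA libraries held both the highest value (TFA 2) and the lowest (TFA 3), on either side of the narrow TGF-β range. The means were 4.22 ± 0.202 FPKM and 4.24 ± 0.910 FPKM (SD, n = 3), and the log2 fold change was 0.02 (SE 0.15, interval -0.32 to 0.36), or 0.12 without TFA 3. As with TNFRSF10B, TFA 3 was the lowest of the 6 libraries. FAS (ENSG00000026103) lies on chromosome 10 from 88990531 to 89017059 on the plus strand, and its first 809 bases overlap ACTA2 on the other strand, which was at 0.457 ± 0.0798 FPKM and 0.353 ± 0.0946 FPKM (SD, n = 3).

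For each gene of the complex that forms on the receptors, the groups overlapped. FADD, the adaptor, was the highest of the 10 per length, at 17.3, 21.4 and 20.7 FPKM under TGF-β alone and 19.1, 20.6 and 20.3 FPKM with TFA. Its lowest library was TGF-β 1. Its log2 fold change was 0.05 (SE 0.15, interval -0.29 to 0.40). CASP8, the main initiator caspase, was at 12.1, 11.3 and 10.3 FPKM under TGF-β alone and 11.3, 12.4 and 10.03 FPKM with TFA. Both groups had a mean of 11.2 FPKM, and the log2 fold change was 0.03 (SE 0.12, interval -0.26 to 0.32). CASP10, its paralogue, was at 2.75, 2.92 and 2.45 FPKM under TGF-β alone and 2.51, 2.79 and 2.27 FPKM with TFA, with a log2 fold change of -0.07 (SE 0.13, interval -0.38 to 0.24).

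CFLAR, the brake, was at 1.97, 1.80 and 1.88 FPKM under TGF-β alone and 2.02, 1.83 and 1.80 FPKM with TFA. It varied least of the 10, with a highest library 1.13 times its lowest, and its log2 fold change was 0.03 (SE 0.12, interval -0.25 to 0.32). Per length, CFLAR was thus at 0.168 ± 0.0129 of the level of CASP8 under TGF-β alone and at 0.169 ± 0.0184 with TFA (SD, n = 3). CASP10 stood at 0.227 to 0.259 of CASP8 under TGF-β alone and at 0.223 to 0.226 with TFA. These values do not overlap but lie within a narrow range, and TGF-β 1 (0.2267) and TFA 3 (0.2261) nearly met. The groups of each gene alone overlapped, so nothing is read from this ratio. The table sums 23 transcripts of CFLAR and 16 of CASP8 each into 1 row, so the long and short forms of c-FLIP, which differ in function, were not told apart. CFLAR, CASP10 and CASP8 lie next to each other in this order on chromosome 2, from 201116154 to 201287711 on the plus strand, with 6.21 kb between CFLAR and CASP10 and 11.8 kb between CASP10 and CASP8. All members of this neighbourhood had intervals that held 0, and the interval of CASP8, for example, leaves room for a difference from -16.7% to 24.5%.

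**Figure D3:**
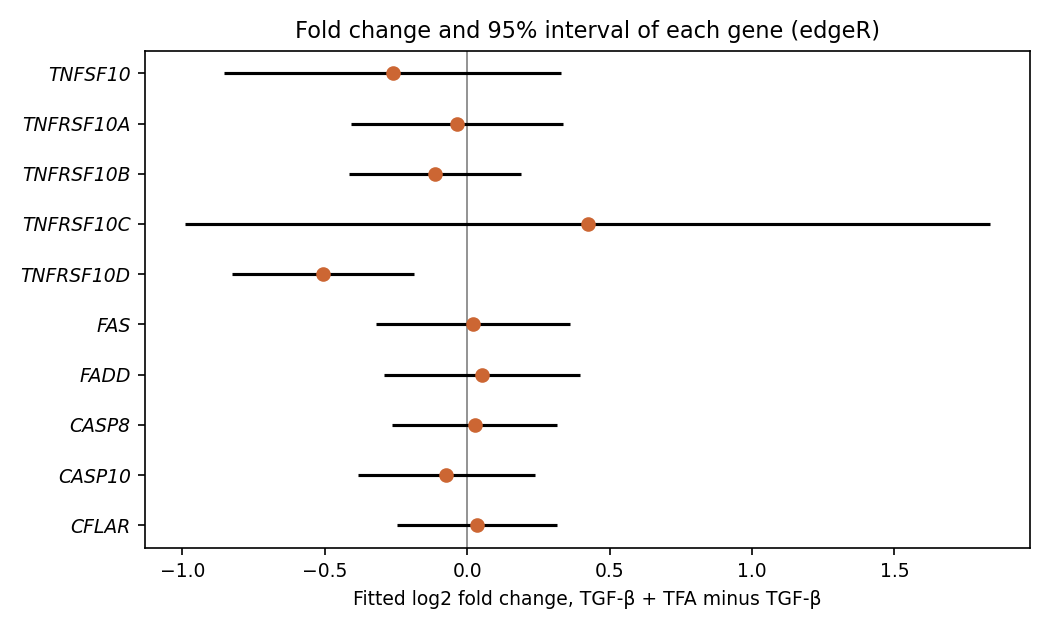
Fitted log2 fold change of TGF-β with TFA minus TGF-β (horizontal axis) for the 10 genes, with 95% intervals as lines. The interval of TNFRSF10D, -0.83 to -0.19, is the only one of the 10 that does not hold 0, and that of TNFRSF10C is the widest.

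By mean level over all libraries, the order was FADD (19.9 FPKM), TNFRSF10D (13.1), TNFRSF10A (11.7), CASP8 (11.2), TNFRSF10B (9.98), FAS (4.23), CASP10 (2.61), CFLAR (1.88), TNFSF10 (0.436) and TNFRSF10C (0.214). TNFRSF10A, CASP8 and TNFRSF10B had ranges over libraries that overlapped (10.5 to 13.5, 10.03 to 12.4 and 7.48 to 10.7 FPKM), so their order is not fixed. The place of TNFRSF10D among them varied between libraries. It was above all 3 of these genes in each TGF-β library and in TFA 1, and below all 3 in TFA 2. In TFA 3 it was below TNFRSF10A, barely below CASP8 (10.02 against 10.03 FPKM) and above TNFRSF10B. In FPKM, CASP10 was above CFLAR in every library, and FADD above every other member. The order differed in estimated counts, which are not scaled to length. There CFLAR (2768 to 3411) was above CASP10 (1174 to 1645), and FADD (2209 to 2703) was below CASP8 (4947 to 6758).

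The rest of the pathway was described from 7 lists of 71 genes chosen with earlier results of these data known, of which 68 were in the table and 63 were fitted. None of the 63 was called by edgeR at an adjusted p under 0.05 (0 by DESeq2 and 0 at an unadjusted p under 0.05), 29 were fitted above 0 and 34 below, and their median was -0.0077. Groups did not overlap in 2 of them, both higher with TFA, against 4.58% of all genes. These were BAK1, a pore-forming protein of the mitochondrial death pathway, and PEA15, a death effector domain protein that can hold FADD and caspase-8 apart. BAK1 was at 6.12, 6.71 and 6.07 FPKM under TGF-β alone and 7.27, 7.64 and 7.33 FPKM with TFA (log2 fold change 0.27, SE 0.14, interval -0.05 to 0.58). PEA15 was at 17.7 ± 0.288 FPKM and 18.5 ± 1.96 FPKM (SD, n = 3), and its groups overlapped in FPKM.

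Among other ligands, 3 of 5 genes in the table were fitted, all below 0, with TL1A (TNFSF15), a cytokine known to inhibit endothelial growth, at a log2 fold change of -0.09 and TWEAK (TNFSF12) at -0.02. Among other receptors and soluble decoys, 2 of 8 were fitted above 0 and 6 below (median -0.01), and the most abundant were the TWEAK receptor TNFRSF12A (28.4 ± 2.91 and 27.3 ± 2.35 FPKM, SD, n = 3; log2 fold change -0.02) and the death domain receptor TNFRSF21 (log2 fold change 0.02). Osteoprotegerin (TNFRSF11B), a soluble decoy that also binds TRAIL, had -0.07 (SE 0.24; chosen after its values were seen). Adaptors and modifiers of the complex had 10 of 21 above 0 and 11 below (median -0.02), with the inhibitor of apoptosis BIRC2 at -0.08.

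Executioners and genes of mitochondrial amplification had 9 of 12 above 0 and 3 below, with a median of 0.11. The most abundant was CYCS, the gene of cytochrome c (0.27, SE 0.22). CYCS was at 109 to 131 FPKM with TGF-β, at 126 and 123 FPKM in TFA 1 and 2, and at 176 FPKM in TFA 3, and without TFA 3 its value was -0.02. The list's median was 2.0e-04 without TFA 3, 0.02 without TGF-β 3, and -0.04 with TGF-β 1 and TFA 3 left out together, so no direction can be read for this list.

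Of the 3 genes listed for necroptosis only MLKL, the pore former of that pathway, was matched in the table (0.18, SE 0.15). Genes listed for glycosylation of the TRAIL receptors had 3 of 5 fitted genes above 0, led in level by GALNT3 (-0.04) and C1GALT1 (-0.05). GALNT14, also listed, had 0 to 13 estimated counts and was not fitted (chosen after its values were seen). Transcription factors known to act on these genes had 4 of 13 above 0 and 9 below (median -0.04), led in level by ATF4 (0.07, SE 0.15). DDIT3, which encodes CHOP, had -0.02 (SE 0.23; chosen after its values were seen).

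**Figure D4:**
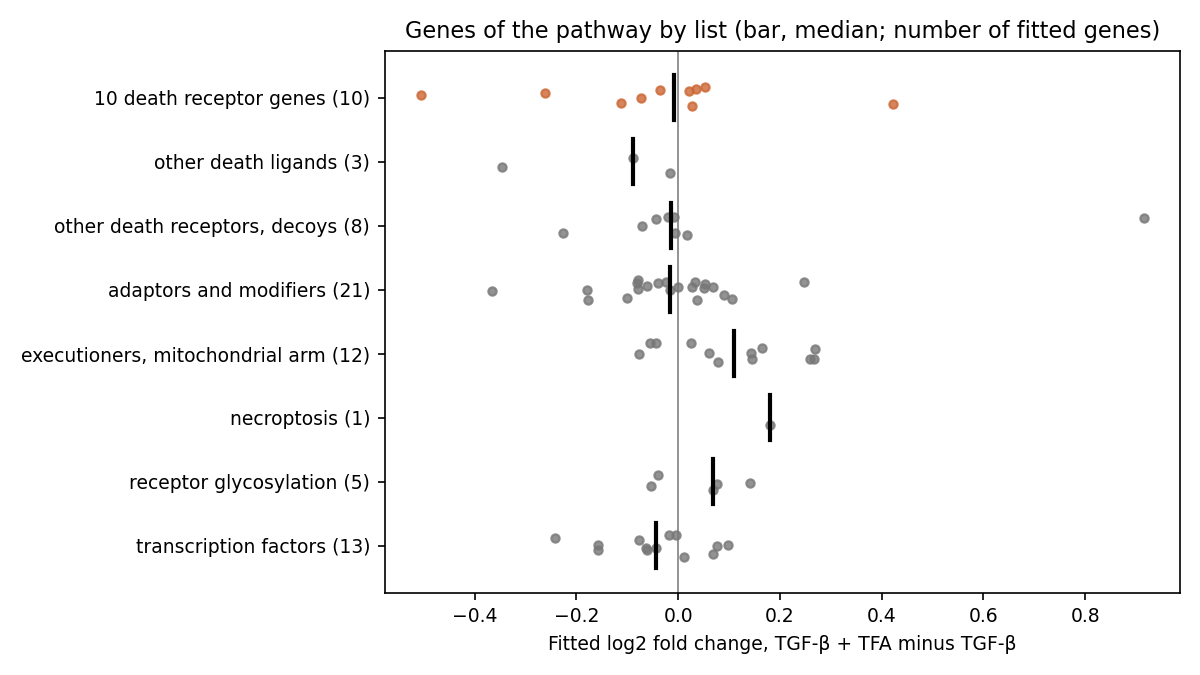
Fitted log2 fold change (horizontal axis) of each gene of the 10 death receptor genes (orange) and of 7 lists of the same pathway (grey), with the median of each list as a black bar and the number of fitted genes in brackets. The medians lie between -0.09 and 0.18, and TNFRSF10D at -0.51 is the lowest point.

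Markers of some other cell types, at trace level except for the endothelial EGFL7, differed in summed level between the groups. Their values stand here beside the lower TNFRSF10D. Fibroblast markers summed to 0.0377 to 0.352 FPKM under TGF-β alone and 0.456 to 2.38 FPKM with TFA (9 genes, 6 fitted, all above 0). Groups of 3 did not overlap in depth-scaled counts, all higher with TFA, against 4.58% of all genes. None was called by edgeR, 4 had an unadjusted p under 0.05 in edgeR (1.83% of all genes) and 1 was called by DESeq2 (0.0794%). COL3A1, DCN and LUM were listed at 0 in every TGF-β library, but COL3A1 and DCN also in TFA 1, and LUM in TFA 1 and TFA 2. Endothelial markers summed to 1.31 to 1.81 and 1.95 to 2.22 FPKM (7 genes, 5 fitted, all above 0). Of them, 3 were higher without overlap in depth-scaled counts, against 4.58% of all genes. EGFL7 supplied most of each sum, and its own groups overlapped in FPKM (1.09 to 1.27 against 1.20 to 1.49). CDH5 was listed at 0 in the TGF-β libraries and also in TFA 1 and TFA 2. Both lists were chosen with earlier results known, so nothing is read from these counts. Haematopoietic markers overlapped, at 0.415 to 0.595 and 0.441 to 0.648 FPKM (6 of 9 genes matched, 2 fitted). Epithelial markers summed to 1528 to 1817 and 1417 to 1575 FPKM (9 of 10 matched, 2 fitted above 0 and 7 below). Among them CLDN4, a tight junction gene, was lower without overlap in depth-scaled counts, against 3.33% of all genes. CDX2, an intestinal transcription factor, was higher, against 4.58% of all genes, although CDX2 overlapped in FPKM. KRT19 was lower without overlap in FPKM (130 to 157 against 112 to 117) but overlapped in depth-scaled counts. The epithelial list was also chosen with earlier results known, so nothing is read from its counts either. The part of any of these markers in the TNFRSF10D values was not tested.

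**Figure D5:**
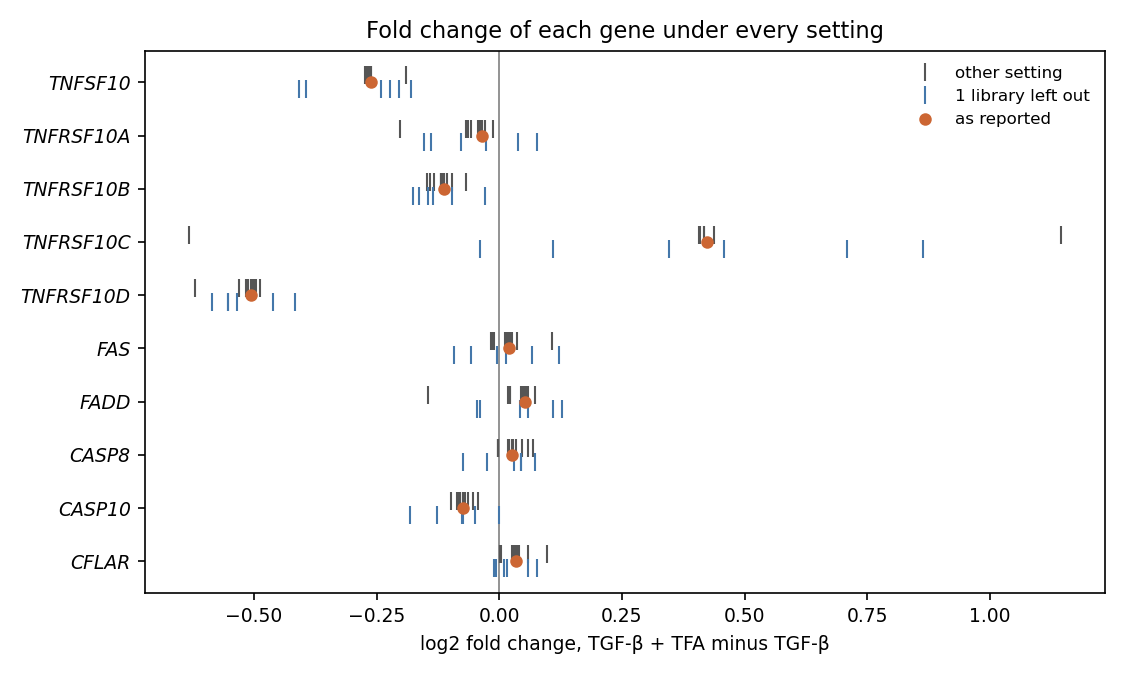
Log2 fold change of each of the 10 genes (horizontal axis) as reported (orange), with 1 library left out (blue ticks) and under the other settings (grey ticks). All values of TNFRSF10D lie between -0.62 and -0.42, while those of TNFRSF10C spread from -0.63 to 1.15 and those of TNFRSF10A, FAS, FADD, CASP8, CASP10 and CFLAR fall on both sides of 0.

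Leaving out any 1 library kept TNFRSF10D between -0.59 (without TGF-β 1) and -0.42 (without TGF-β 2). The gene was chosen on this contrast and its groups did not overlap, so nothing is read from its constant sign. With the trend along transcript length taken out of each library, the value was -0.52. TNFRSF10B stayed below 0 in all 18 alternative settings (-0.18 to -0.03) and TNFSF10 in all 14 that could be fitted (-0.41 to -0.18). Both fitted intervals held 0 and the settings reuse the same libraries, so no direction is read for TNFRSF10B or TNFSF10. TNFRSF10A was above 0 in 2 of 18 settings, FAS below 0 in 6, CASP8 in 5, FADD in 3, CFLAR in 2 and CASP10 above 0 in 1, so no direction can be read for these genes.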

How the data were processed

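The study deposited 1 table with a row per gene and, for each of the 6 libraries, an FPKM value and an estimated count as the authors made them. The build is GRCh38 and the tools named are HISAT2 2.0.4, cutadapt 1.9 and StringTie 1.3.4d, per the submitters' processing notes, which give them no roles. Libraries were stranded (dUTP) with molecular identifiers in the adapters, per the labels' protocols; the sources used here do not say whether counting used either. The deposited estimated counts are whole numbers and went unchanged into edgeR 4.0.16 (R 4.3.3): genes were filtered by filterByExpr and libraries scaled by TMM, and group was the only term of the quasi-likelihood model, with a 2-sided test and Benjamini-Hochberg adjustment over 18265 genes. Alternatives used DESeq2 1.42.0 and limma 3.58.1 on log2(FPKM + 0.5), other filters, scalings and left-out libraries. The edgeR script was tested on simulated data. Estimated counts per library limit the precision of low genes, TNFRSF10C above all. Samples were grouped by their titles. The 10 genes and all lists were chosen with earlier results of these data known. Named list genes were the 2 most abundant of each list and fitted genes with a mean of at least 1 FPKM whose groups did not overlap in depth-scaled counts. Some genes that this rule names are not reported here. Gene positions are the table's own; the start and end of 1 of the 10 genes matched GENCODE 29 exactly, so GENCODE 29 was used for transcript sequences only.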

Additional observations from a re-analysis of the deposited data

How the results depend on the processing

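None of the 10 genes was called in any of the 18 alternative settings; since the genes were chosen on this contrast, nothing is read from that. The median of the fitted members ran from -0.10 (without TGF-β 3) to 0.029 (without TGF-β 2) when 1 library was left out, and the number fitted below 0 from 8 to 3. The count of genes called over the whole table was 2, and 16 by DESeq2, 1 with the replicate block and 1 to 3 with 1 library left out (1 without TGF-β 2, TFA 1 or TFA 2). Same-numbered libraries did not deviate together (correlations of 0.04, -0.12 and -0.13), so the numbers were not taken to pair them; with the replicate block TNFRSF10D had -0.50, the members' median was -0.01 and no member was called. The decoy share, which follows TNFRSF10D, differed by -7.50 to -6.33 percentage points with 1 library left out and by -6.58 when taken from counts. TNFRSF10C and TNFSF10 could not be fitted on FPKM, where the filter left 8 members, nor at a mean CPM of at least 5, and TNFRSF10C not on counts divided by 4.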
